A study of Mus musculus with 8 samples.

Results

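The 10 genes described here are Dusp4, Dusp5, Dusp6, Spry1, Spry2, Spry4, Spred1, Spred2, Etv4 and Etv5. All are known transcriptional targets of signalling from receptor tyrosine kinases to the kinase ERK. The DUSP, Sprouty and SPRED genes are also feedback regulators of it. For brevity all 10 are called feedback genes or feedback targets here. They were taken by symbol from the count tables of uterine stromal cells of the mouse, and all 10 were found among 23420 gene symbols. Polyadenylated RNA was sequenced at day 3, with 4 libraries carrying the label Erbb3f/f and 4 the label Erbb3d/d. By mouse convention, f stands for an allele carrying loxP sites and d for the form left by Cre. The labels name no Cre line, do not say from which event the day is counted, and do not say whether the libraries of a genotype came from separate animals, so p-values measure only the spread between these samples. The series asks what stromal Erbb3, a receptor of the ERBB family, does in the uterus, and the comparison made here is whether the feedback genes differ between the genotypes.

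Receptor tyrosine kinases such as those of the ERBB family switch on RAS, which activates the kinases RAF, MEK and ERK in turn. ERK induces genes that restrain the same route. DUSP proteins are phosphatases that remove phosphate from MAP kinases, and Sprouty and SPRED proteins act on the steps from the receptor to RAF. ERK also induces Etv4 and Etv5, which are ETS-family transcription factors of the PEA3 group. Because the transcripts of these genes change with ERK activity in many cell types, they are often read as a proxy of it, although RNA alone does not measure the activity of a kinase.

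Reads assigned to genes numbered 8578575 to 12854367 per library. Values are given as CPM, which relates a gene's reads to a library size scaled by TMM and set to 1000000. The targeted gene did not follow the labels: Erbb3 had 7.40, 10.6, 8.25 and 12.3 CPM in Erbb3f/f replicates 1 to 4 and 7.37, 14.3, 17.6 and 16.2 CPM in Erbb3d/d replicates 1 to 4. Reads of a deleted exon were not counted apart from those of the rest of the gene. Directions below therefore follow the labels only. The defining markers of stroma were abundant, with averages of 915.5 CPM under the label Erbb3f/f and 622 CPM under the label Erbb3d/d for Pdgfra, 2846 and 2761 CPM for Col1a1, and 1052 and 721 CPM for Hoxa10. Markers of other cells were present as well. Epcam of epithelium averaged 77.6 and 153 CPM, Myh11 of smooth muscle 243.6 and 531.5 CPM, Pecam1 of endothelium 52.0 and 56.0 CPM, and Ptprc of immune cells 126 and 116 CPM. Fewer cells of a type and less RNA per cell cannot be told apart in such bulk samples.

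All 10 feedback genes had a higher mean in the libraries labelled Erbb3d/d, and none of them passed the genome-wide test. The 10 genes were chosen with earlier results of these data known. Their shared direction and the shares of all genes set beside them are therefore descriptions. The median log2 fold change of the 10 genes was 0.43, against -0.01 over all 14598 genes tested. Of all genes tested, 48.0% had a log2 fold change above 0. Dusp4 had the largest difference, 2.56 times the Erbb3f/f mean, and Spred1 the smallest, 1.15 times. With edgeR's quasi-likelihood test and Benjamini-Hochberg adjustment over all genes, 0 of the 10 had an adjusted p under 0.05, as did 0% of all genes tested. At an unadjusted p under 0.05 there were 6 of the 10, all higher (Dusp4, Dusp6, Spry2, Spred1, Spred2 and Etv5), where 6.64% of all genes tested passed in that direction. DESeq2 called 2 of the 10 higher, Dusp4 (adjusted p = 0.00166) and Etv5 (adjusted p = 0.0371), where it called 1.39% of all genes higher. limma-voom called 0 of the 10 and 0% of all genes. For Dusp4 and Etv5 the 4 libraries of each genotype did not overlap, as was the case in the same direction for 2.56% of all genes tested. All 10 genes passed the filter on low counts.

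**Figure D1:**
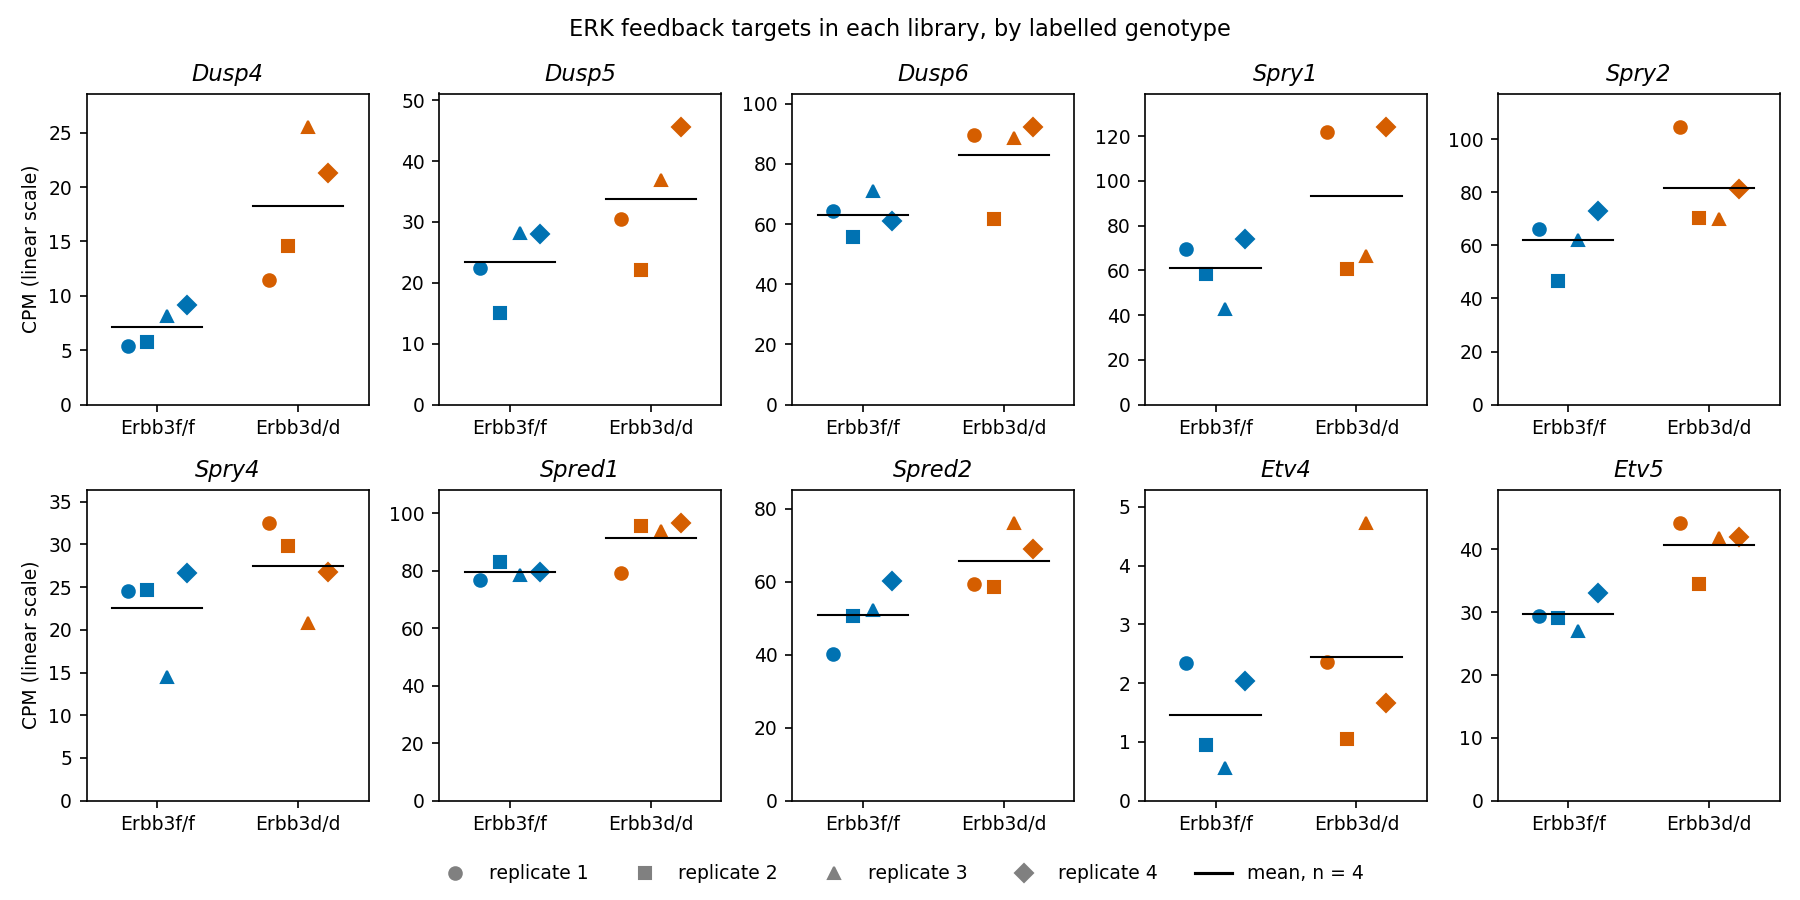
Each panel shows 1 gene, with CPM on a linear axis from 0, libraries as points by labelled genotype and replicate, and the mean of 4 as a line. The 4 Erbb3d/d points lie above the 4 Erbb3f/f points in the panels of Dusp4 and Etv5, and the other 8 panels overlap.

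The regions before the starts of 4 of these genes are shown because the 10 genes share a direction and are known targets of one route. RefSeq (GRCm38.p6) gave windows for 7 of the 10 genes, Dusp5, Dusp6, Spry1, Spry2, Spred1, Spred2 and Etv5. Dusp4, Spry4 and Etv4 had no entry there. Each sequence is the 250 bases before the RefSeq start, 5′ to 3′ on the strand of the gene. It lies outside the exons of the transcript that begins there. By GENCODE vM21 positions, however, the Dusp5, Spred2 and Etv5 windows end inside the gene, and both matches marked in Spred2 lie inside it. Those shown are Dusp6 at chr10:99262981-99263230 and Dusp5 at chr19:53528895-53529144, both on the plus strand, Spred2 at chr11:19924192-19924441 on the plus strand, and Etv5 at chr16:22439571-22439820 on the minus strand. Capitals mark matches to CGGAAG, the core bound by ETS factors with its flanks, or to TGACGT, the core of the cAMP response element, on either strand.
Dusp6: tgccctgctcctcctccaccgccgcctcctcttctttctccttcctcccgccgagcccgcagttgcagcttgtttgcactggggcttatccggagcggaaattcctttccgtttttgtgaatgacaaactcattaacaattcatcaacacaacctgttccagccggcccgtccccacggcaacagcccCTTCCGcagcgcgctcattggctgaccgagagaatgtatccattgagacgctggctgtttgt
Dusp5: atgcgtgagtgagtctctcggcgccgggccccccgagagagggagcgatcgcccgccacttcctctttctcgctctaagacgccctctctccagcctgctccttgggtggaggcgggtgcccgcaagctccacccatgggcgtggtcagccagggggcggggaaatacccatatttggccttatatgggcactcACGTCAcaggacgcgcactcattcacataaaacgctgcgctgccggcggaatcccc
Spred2: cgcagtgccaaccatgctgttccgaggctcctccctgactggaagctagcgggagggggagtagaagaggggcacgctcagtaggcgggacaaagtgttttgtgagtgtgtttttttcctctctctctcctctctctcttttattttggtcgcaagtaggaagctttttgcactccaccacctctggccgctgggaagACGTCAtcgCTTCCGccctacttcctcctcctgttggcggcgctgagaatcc
Etv5: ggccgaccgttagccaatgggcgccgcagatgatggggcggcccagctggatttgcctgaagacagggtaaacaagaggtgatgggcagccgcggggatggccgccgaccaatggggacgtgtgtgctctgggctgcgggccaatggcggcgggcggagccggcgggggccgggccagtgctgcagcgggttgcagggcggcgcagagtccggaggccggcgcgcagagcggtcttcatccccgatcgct
The ETS letters were found in Dusp6, beginning 62 bases before the start, and in Spred2 at 43 bases. They were also found in Spred1, which is not printed, at 17 bases, where the RefSeq start did not match a GENCODE transcript. The ETS letters lay in 3 of the 8 windows of these 7 genes and in 13.6% of all 32851 RefSeq windows of the same length. The windows of these 7 genes held 56.0% to 71.2% G or C, and the RefSeq windows as a whole were not matched for that. The letters TGACGT, read as their reverse complement, were found in Dusp5 at 56 bases and in Spred2 at 52 bases, in 2 of the 8 windows against 6.47% of all. The AP-1 letters TGANTCA were in 0 of the 8 windows and in 6.75% of all. No marked match overlapped another, and Etv5, whose genotypes did not overlap in RNA, had none of the 3 in either of its windows. A match describes letters only.

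Dusp4, a nuclear phosphatase that acts on ERK and other MAP kinases, lies on chromosome 8 at 34807297 to 34819894 (GRCm38, GENCODE vM21). Its level was 5.36, 5.76, 8.17 and 9.16 CPM in Erbb3f/f replicates 1 to 4 and 11.5, 14.6, 25.5 and 21.3 CPM in Erbb3d/d replicates 1 to 4. The lowest Erbb3d/d library was above the highest Erbb3f/f library, and Erbb3d/d replicates 3 and 4 were the highest of all. The means were 7.11 ± 1.84 and 18.2 ± 6.36 CPM (SD, n = 4 each), from 55 to 324 reads per library. The fitted log2 fold change was 1.36 (SE 0.28; edgeR adjusted p = 0.183), beside an exact permutation p of 0.0286, the smallest that 4 against 4 libraries allow. Without Erbb3d/d replicate 2, edgeR called Dusp4 (log2 fold change 1.46, adjusted p = 0.0401), in a fit that called 0.968% of all genes higher. Leaving out any other single library, edgeR did not call it (adjusted p = 0.200 to 0.491). Without Erbb3d/d replicates 3 and 4 together, an alternative chosen after the data were seen, the log2 fold change was 0.88 (SE 0.29).

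Dusp6, the cytoplasmic phosphatase selective for ERK and the most abundant of the 3 DUSP genes, lies on chromosome 10 at 99263231 to 99267489. It had 64.2, 55.8, 70.9 and 60.9 CPM in Erbb3f/f replicates 1 to 4 and 89.5, 61.6, 88.7 and 92.3 CPM in Erbb3d/d replicates 1 to 4. Erbb3d/d replicate 2 sat inside the Erbb3f/f range and the other 3 Erbb3d/d libraries lay close together above it. The fitted log2 fold change was 0.40 (SE 0.14; edgeR adjusted p = 0.321), beside an exact permutation p of 0.0857. Without Erbb3d/d replicate 2, its lowest Erbb3d/d library, the log2 fold change was 0.52 (SE 0.10) at an edgeR adjusted p of 0.0359. That is the same fit that called 0.968% of all genes higher, against 0% with all 8 libraries. Leaving out any other single library gave log2 fold changes of 0.35 to 0.46 and no call (edgeR adjusted p = 0.399 to 0.702).

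Dusp5, a nuclear phosphatase that anchors and inactivates ERK, lies on chromosome 19 at 53529109 to 53542431. Its level was 22.4, 15.0, 28.1 and 28.0 CPM in Erbb3f/f replicates 1 to 4 and 30.6, 22.2, 37.0 and 45.6 CPM in Erbb3d/d replicates 1 to 4. In both genotypes replicate 2 was the lowest, and 3 of the 4 Erbb3d/d libraries exceeded every Erbb3f/f library. The fitted log2 fold change was 0.53 (SE 0.25; edgeR adjusted p = 0.444). It was 0.18 (SE 0.26) without Erbb3d/d replicates 3 and 4 together. An exon of Dusp5 overlaps a GENCODE gene on the other strand, AC137853.2, and the non-directional libraries do not separate the strands.

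The 3 Sprouty genes encode membrane-associated inhibitors of the route from receptors to RAS and RAF. Spry1, on chromosome 3 at 37639947 to 37644598, had 69.6, 58.4, 42.8 and 74.2 CPM in Erbb3f/f replicates 1 to 4 and 122, 60.7, 66.3 and 124 CPM in Erbb3d/d replicates 1 to 4. Erbb3d/d replicates 1 and 4 were far above the rest, and replicates 2 and 3 lay inside the Erbb3f/f range. The means were 61.3 ± 14.0 and 93.2 ± 34.4 CPM (SD, n = 4 per genotype), and edgeR fitted a log2 fold change of 0.61 (SE 0.27; adjusted p = 0.432). Spry1 shares exonic sequence with Gm42922 on the other strand.

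Spry2, on chromosome 14 at 105891947 to 105896819, ran from 46.7 to 72.9 CPM across the Erbb3f/f libraries and from 69.9 to 105 CPM across the Erbb3d/d ones. Its highest library was Erbb3d/d replicate 1, and 2 of the 4 Erbb3d/d libraries exceeded the Erbb3f/f range. The fitted log2 fold change was 0.40 (SE 0.16; edgeR adjusted p = 0.396), and 0.25 (SE 0.15) without Erbb3d/d replicate 1. Spry4 ran from 14.5 to 26.7 CPM across the Erbb3f/f libraries and from 20.8 to 32.5 CPM across the Erbb3d/d ones, with replicate 3 the lowest library of each genotype. Of the 3 Erbb3d/d libraries above the Erbb3f/f range, replicate 4 was so by a narrow margin, 26.76 against 26.68 CPM. Its fitted log2 fold change was 0.29 (SE 0.21; edgeR adjusted p = 0.615), and 0.12 (SE 0.17) without Erbb3f/f replicate 3. Without Erbb3d/d replicates 3 and 4 together it was 0.47 (SE 0.23).

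Spred1 and Spred2 encode proteins related to the Sproutys that bring the RAS inactivator neurofibromin to the membrane. Spred1, on chromosome 2 at 117121374 to 117182279, was the most even gene of the 10 in Erbb3f/f, at 76.9, 83.1, 78.4 and 79.5 CPM in replicates 1 to 4. In Erbb3d/d replicates 1 to 4 it had 79.2, 95.4, 93.9 and 96.6 CPM, so that replicate 1 was among the Erbb3f/f libraries and the other 3 were above them. Its fitted log2 fold change was 0.20 (SE 0.09; edgeR adjusted p = 0.428).

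Spred2, on chromosome 11 at 19924375 to 20024026, had 40.2, 50.7, 52.2 and 60.4 CPM in Erbb3f/f replicates 1 to 4 and 59.5, 58.6, 76.2 and 69.05 CPM in Erbb3d/d replicates 1 to 4. Only Erbb3d/d replicates 3 and 4 exceeded the highest Erbb3f/f library, the same libraries that were highest for Dusp4. Its fitted log2 fold change was 0.37 (SE 0.14; edgeR adjusted p = 0.348), and 0.22 (SE 0.16) without those 2 libraries.

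The PEA3 factors differed in how firmly they were measured. Etv5, on chromosome 16 at 22381309 to 22439719, had 29.4, 29.1, 26.9 and 33.1 CPM in Erbb3f/f replicates 1 to 4 and 44.2, 34.5, 41.8 and 42.0 CPM in Erbb3d/d replicates 1 to 4. These ranges are separate, although Erbb3d/d replicate 2 was only just above the highest Erbb3f/f library. The means were 29.6 ± 2.57 and 40.6 ± 4.23 CPM (SD, n = 4 per genotype), and edgeR fitted a log2 fold change of 0.46 (SE 0.12; adjusted p = 0.258), beside an exact permutation p of 0.0286.

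Etv4, on chromosome 11 at 101769742 to 101785371, was scarce. The Erbb3f/f libraries held 24, 9, 7 and 18 reads of it in order of replicate, and the Erbb3d/d libraries 24, 9, 60 and 19 reads. Apart from the 60 reads of Erbb3d/d replicate 3, every library held 7 to 24 reads. The fitted log2 fold change was 0.77 (SE 0.57; edgeR adjusted p = 0.627), and it was 0.23 without Erbb3d/d replicate 3 and 0.48 without Erbb3f/f replicate 3.

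The Erbb3d/d libraries did not carry the difference equally. Of the 10 genes, 8 exceeded the highest Erbb3f/f value in Erbb3d/d replicate 1, 4 in replicate 2, 7 in replicate 3 and 9 in replicate 4. The share of all genes above the highest Erbb3f/f value was not computed for single libraries, so these counts are a description. Erbb3d/d replicate 2 was the lowest of its genotype for 6 genes and the highest for 0. At least 3 of the 4 Erbb3d/d libraries exceeded every Erbb3f/f library for 6 of the 10 genes (Dusp4, Dusp5, Dusp6, Spry4, Spred1 and Etv5), where this held for 10.4% of all genes tested. Erbb3f/f replicate 4 was the highest of its genotype for 6 genes.

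**Figure D2:**
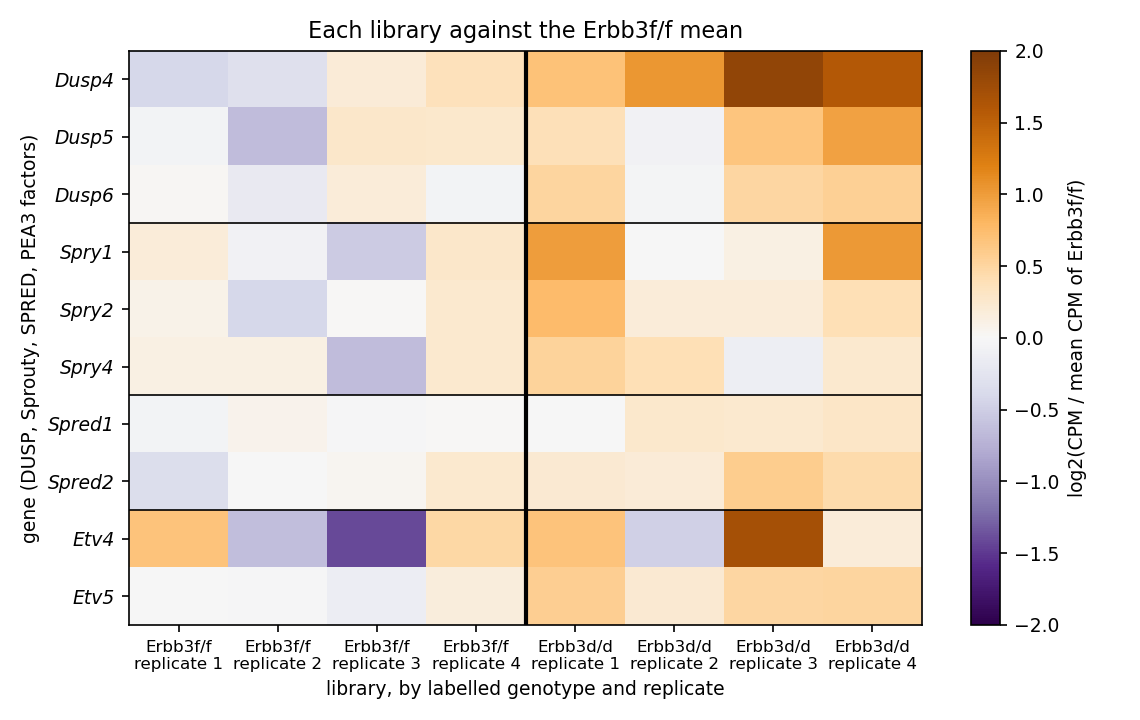
Colour gives the log2 ratio of each library's CPM to the Erbb3f/f mean of that gene, with genes in rows by family and libraries in columns by labelled genotype. Erbb3d/d replicates 3 and 4 are darkest for Dusp4 (1.84 and 1.58), replicates 1 and 4 for Spry1 (0.99 and 1.02), and replicate 2 is the palest Erbb3d/d column.

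Levels of different genes were compared per length, as CPM per kb of merged exons. In Erbb3f/f the order was Spry2 (29.7 ± 5.32), Spry1 (21.1 ± 4.81), Dusp6 (20.1 ± 2.02), Spred1 (11.7 ± 0.395), Spred2 (11.0 ± 1.79), Dusp5 (9.46 ± 2.51), Etv5 (7.23 ± 0.625), Spry4 (4.75 ± 1.16), Dusp4 (2.60 ± 0.673) and Etv4 (0.472 ± 0.276) CPM per kb (SD, n = 4). Among neighbours in that order, Dusp6 and Spred1, Etv5 and Spry4, and Dusp4 and Etv4 did not overlap between libraries, and every other neighbouring pair did. In Erbb3d/d Spry2 was again highest (39.0 ± 7.80) and Etv4 lowest (0.790 ± 0.518). Spred2 (14.2 ± 1.81), Dusp5 (13.7 ± 4.01) and Spred1 (13.5 ± 1.20) came after Dusp6 and overlapped in that order, each with the next. Dusp4 (6.65 ± 2.32) stood before Spry4 (5.78 ± 1.06), with overlapping libraries. Neighbours that did not overlap in Erbb3d/d were Dusp6 and Spred2, Spred1 and Etv5, and Spry4 and Etv4.

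Levels of markers of other cell types also differed between the libraries. Of 20 epithelial markers 17 had a log2 fold change above 0, and their summed level ran from 1159 to 1926 CPM across the Erbb3f/f libraries and from 1823 to 3062 CPM across the Erbb3d/d ones. Erbb3d/d replicates 3 and 4, highest for Dusp4, Dusp5 and Spred2, had the 2 highest epithelial sums, 3038 and 3062 CPM. Of 12 smooth muscle markers 11 had a log2 fold change above 0, with sums of 1865 to 3120 CPM against 3031 to 6353 CPM. Erbb3d/d replicates 1 and 4, highest for Dusp6, Spry1, Spry2 and Etv5, had the 2 highest smooth muscle sums, 6353 and 3915 CPM. For Dusp6 and Etv5 Erbb3d/d replicate 3 was nearly level with them. It had 88.7 CPM of Dusp6 against 89.5 CPM in replicate 1, and 41.8 CPM of Etv5 against 42.0 CPM in replicate 4. Spry4, Spred1 and Etv4 were highest in other pairs of libraries, and a link to the marker sums was not tested. Of 20 general stromal genes 6 had a log2 fold change above 0, and their sums were 23750 to 31320 CPM against 18990 to 26580 CPM. Of 14 endothelial markers 13 had a log2 fold change above 0, with a median of 0.19, and of 13 immune markers tested out of 16 listed 6 did, with a median of -0.11. No gene of these marker lists was called in edgeR's test. At an unadjusted p under 0.05, 13 epithelial, 11 smooth muscle and 1 endothelial marker were higher in Erbb3d/d. At that threshold 5 stromal genes and 1 immune marker were lower. Over all 14598 genes tested, 969 (6.64%) were higher and 726 lower. No defining marker was at 0.

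The 2 most abundant genes of each marker list did not all share its direction. Among epithelial markers, Cdh1, the adhesion protein of epithelia, averaged 182 and 272 CPM, while Cldn3, a tight junction protein, averaged 262 and 225 CPM in Erbb3f/f and Erbb3d/d. Among smooth muscle markers, Mylk, the kinase of myosin light chain, averaged 627.5 and 1043 CPM, while Synpo2, which binds actin, averaged 626 and 515 CPM. The collagens Col6a1 (4703 and 3902 CPM) and Col3a1 (3447 and 3009 CPM) led the stromal list. Sox17 (203 and 220 CPM) and Cdh5 (196 and 151 CPM) led the endothelial list, and Lyz2 (1043 and 1128 CPM) and C1qa (235.0 and 256 CPM) the immune list.

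Fits that hold the mean of a marker list constant gave these values for the 10 genes. Holding the epithelial mean constant, Dusp4 had a log2 fold change of 0.86 (SE 0.36), Dusp5 of 0.22 (SE 0.34), Spred2 of 0.18 (SE 0.18) and Etv4 of -0.20 (SE 0.70). In that fit Spry1 was at 0.36 (SE 0.36), Spred1 at 0.12 (SE 0.13), Spry4 at 0.24 (SE 0.28), Etv5 at 0.33 (SE 0.16), Dusp6 at 0.34 (SE 0.20) and Spry2 at 0.45 (SE 0.23). Of the 10, only Spry2 was higher there than without the covariate. With the smooth muscle mean as a covariate, Spry1 was at -0.04 (SE 0.29) and Spry4 at -0.12 (SE 0.25), while Dusp4 was at 1.96 (SE 0.32), Spred2 at 0.58 (SE 0.18) and Etv5 at 0.35 (SE 0.17). Spry2 was at 0.20 (SE 0.24) there, Dusp5 at 0.77 (SE 0.37), Dusp6 at 0.39 (SE 0.20), Spred1 at 0.28 (SE 0.13) and Etv4 at 0.71 (SE 0.77). Dusp4, Dusp5, Dusp6, Spry2, Spred1, Spred2 and Etv5 kept a value above 0 in both fits. In neither fit was any of the 10 genes called by edgeR, as was the case for all genes (0%). Each fit spends 1 of the 6 residual degrees of freedom. Both marker means were higher on average under the label Erbb3d/d, the epithelial one by 0.61 and the smooth muscle one by 0.88 log2 CPM. Both covariates thus partly follow the labels, and these fits cannot separate marker level from genotype.

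**Figure D3:**
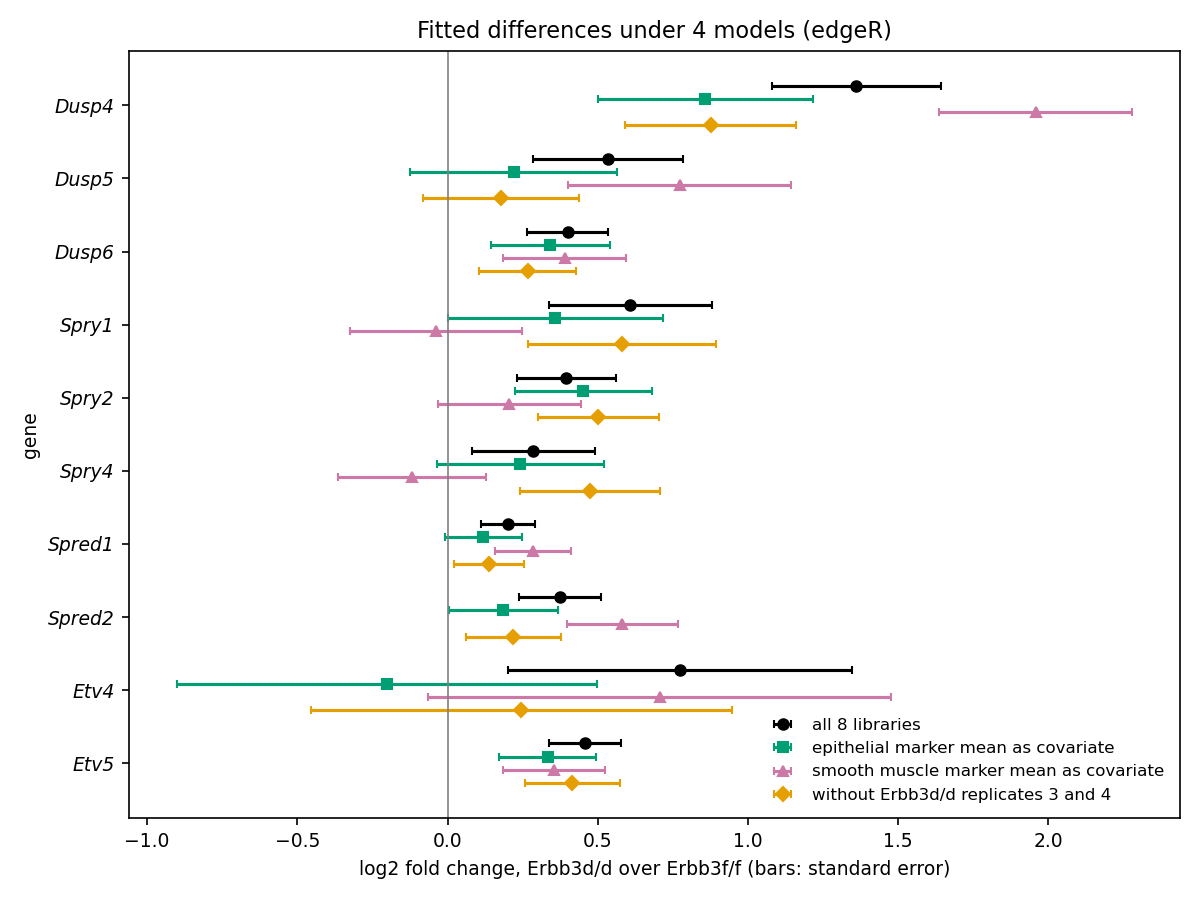
The log2 fold change of each gene, Erbb3d/d over Erbb3f/f, is plotted with its standard error from edgeR for all 8 libraries, with either marker mean as a covariate, and without Erbb3d/d replicates 3 and 4. Dusp4 stays between 0.86 and 1.96, Etv5 between 0.33 and 0.46, and Spry1, Spry4 and Etv4 each lie below 0 in 1 fit.

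Other genes of the pathway were read from lists written from general knowledge. Over all 14598 genes tested, 969 were higher and 726 lower at an unadjusted p under 0.05, beside the counts for these lists. Of 30 further genes listed as induced by ERK signalling or as restraining it, 23 had a log2 fold change above 0 and 7 below, with a median of 0.31. Whether each of them responds to ERK in these cells was not tested. In edgeR's test 0 of these 30 were called, with 5 higher and 1 lower at an unadjusted p under 0.05. The 3 with the smallest p did not pass. Ier3, an immediate early gene, averaged 51.2 ± 10.9 and 86.2 ± 18.5 CPM in Erbb3f/f and Erbb3d/d (SD, n = 4 each). Epha2, an ephrin receptor, averaged 12.6 ± 4.59 and 21.8 ± 3.91 CPM, and Etv1, the remaining PEA3 factor, 5.87 ± 1.55 and 10.8 ± 2.92 CPM. These 3 were all higher in Erbb3d/d. The 1 gene lower at that threshold was Myc, with 292.8 ± 60.1 and 169.6 ± 55.4 CPM (log2 fold change -0.79, SE 0.24, edgeR adjusted p = 0.311). This list also held 8 other DUSP, Sprouty and SPRED genes, of which 3 had a log2 fold change above 0 and 5 below, and edgeR called none of them (unadjusted p under 0.05 for 1, Dusp10). The phosphatase genes Dusp10, Dusp1 and Dusp2 were at 1.21 (SE 0.39), 0.38 (SE 0.26) and 0.16 (SE 0.24), and Dusp7, Dusp16 and Dusp9 at -0.19 (SE 0.13), -0.17 (SE 0.11) and -0.92 (SE 0.51). Dusp10 averaged 5.07 ± 2.04 and 11.7 ± 4.72 CPM in Erbb3f/f and Erbb3d/d (SD, n = 4 each). Spry3 was at -0.37 (SE 0.40) and Spred3 at -0.15 (SE 0.18).

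The core cascade had no shared direction. Of 29 genes tested out of 30 listed, from adaptors to ERK substrates, 14 had a log2 fold change above 0 and 15 below, with a median of -0.02, and 0 were called in edgeR's test, with 1 higher and 1 lower at an unadjusted p under 0.05. The kinases Braf and Araf had log2 fold changes of 0.01 (SE 0.08) and -0.04 (SE 0.12). Those of the MEK genes Map2k1 and Map2k2 were 0.13 (SE 0.12) and 0.04 (SE 0.12), and that of Mapk3, which encodes an ERK kinase, was -0.08 (SE 0.11). The 3 with the smallest p did not pass: the scaffold Ksr1 averaged 65.0 and 51.9 CPM, the ETS factor Ets2 175 and 218 CPM, and the ERK-activated kinase Rps6ka3 9.35 and 14.1 CPM in Erbb3f/f and Erbb3d/d.

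Receptors upstream were split. Of 19 receptor tyrosine kinases tested out of 20 listed, 11 had a log2 fold change above 0 and 8 below, with a median of 0.22, and 0 were called in edgeR's test, with 4 higher and 2 lower at an unadjusted p under 0.05. The 3 with the smallest p did not pass. Pdgfra, the PDGF receptor of stromal fibroblasts, ran from 817 to 999 CPM across the Erbb3f/f libraries and from 520 to 721 CPM across the Erbb3d/d ones, and Egfr, the receptor of EGF, averaged 129 ± 29.9 and 73.3 ± 27.0 CPM. Met, the receptor of hepatocyte growth factor, averaged 21.6 ± 2.89 and 43.9 ± 21.5 CPM (SD, n = 4 each).

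**Figure D4:**
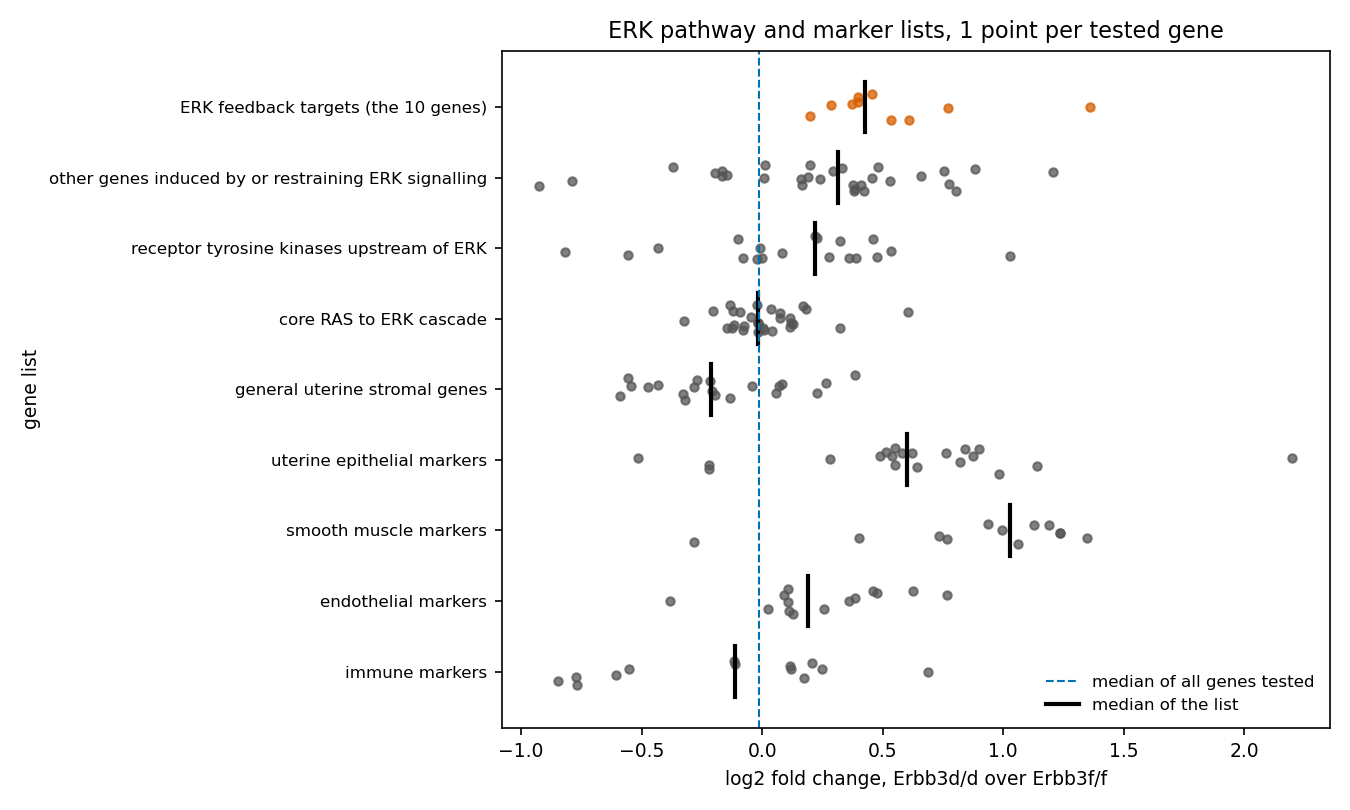
Each point is the log2 fold change of 1 tested gene, Erbb3d/d over Erbb3f/f, by gene list, with list medians as black bars and the median of all genes tested as a dashed line. The 10 feedback targets lie between 0.20 and 1.36, the core cascade has its median at -0.02, and the smooth muscle (1.03) and epithelial (0.60) lists have the highest medians of the lists plotted.

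The tested gene whose log2 CPM was most like each of 9 of the 10 over the 8 libraries was found by Pearson's r. These are the best of 14588 candidates, and are given as a description. Dusp4 was closest to Tgtp2 (r = 0.989, Spearman's rho = 0.976), Dusp5 to Zc3h12a (0.984, 0.905), Dusp6 to Hsd17b11 (0.983, 0.952) and Spred2 to Cdca3 (0.985, 1). Spry1 was closest to Apod (0.968, 0.690), Spry2 to Mafk (0.982, 0.857) and Spry4 to Fgf12 (0.957, 0.905). Spred1 was closest to Slc35f5 (0.973, 0.929) and Etv5 to Lgr6 (0.959, 0.881). No 2 of these 9 shared a closest gene. Lgr6 averaged 1.27 and 3.97 CPM in Erbb3f/f and Erbb3d/d, and Tgtp2 13.8 and 29.1 CPM.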

How the data were processed

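Per the submitters' processing notes, HISAT2, SAMtools, HTSeq and StringTie were used with mm10 (GRCm38). Versions, annotation and counting options are not given in the sources used here. The authors deposited raw read counts per gene symbol, 1 table per library, and 5 lines per table that name no gene were left out; 27.0% to 29.1% of entries were in genes. Libraries were grouped by title. Counts were tested in R 4.3.3 with edgeR 4.0.16 (filterByExpr, 14598 genes; TMM; robust glmQLFit, glmQLFTest; Benjamini-Hochberg, threshold 0.05), with DESeq2 1.42.0 and limma 3.58.1 (voom) as alternatives, beside other scalings, no filter, a replicate block, marker covariates and leaving out libraries. Single genes were compared by two-sided exact permutation over 70 splits on log2(CPM + 0.5). The code was tested on simulated data. Values of some single genes are not reported here. Exon lengths came from GENCODE vM21, matched by symbol, and promoters from RefSeq. The members, gene lists and tests were chosen with earlier results of these data known. The genes named are the 10 members, Erbb3, defining markers, the 2 most abundant markers per list and the closest gene to each member. Also named are list genes called, or else the 3 with the smallest p, and the RAF, MEK and ERK genes. Myc and the other DUSP, Sprouty and SPRED genes were named after their values were seen.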

Additional observations from a re-analysis of the deposited data

Results flagged for a closer look

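Each of the 10 genes and Erbb3 was checked in both genotypes for a library that stood off from the other 3. This made 22 checks, of which 2 found such a library, and chance at 1 in 20 would give 1.1. The level of Dusp6 in Erbb3d/d replicate 2 was 61.6 CPM, while the next lowest Erbb3d/d library had 88.7 CPM. The level of Spred1 in Erbb3d/d replicate 1 was 79.2 CPM, while the next lowest had 93.9 CPM.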

How the results depend on the processing

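With DESeq2, 2 of the 10 genes were called higher, and 203 genes were called higher and 59 lower over the whole table, against 0 in each case with edgeR. Leaving out each library in turn, edgeR called 0 to 2 of the 10 higher, and over all genes 0 to 143 higher and 0 to 116 lower; the calls came without Erbb3d/d replicate 2, and leaving out any other single library gave 0. With the replicate number as a block, 1 of the 10 was called higher (Dusp4, adjusted p = 0.0381), and 39 genes (0.267%) were called higher and 13 lower over all genes. The numbers were not taken to pair the samples: same-numbered libraries correlated at 0.0959 to 0.221 in their deviations from the genotype means, over 0.1 in 3 of 4 pairs, and 3 of the 4 Erbb3f/f libraries matched their own number best. Log2 fold changes below 0 were Etv4 (-0.20) and Erbb3 (-0.0094) with the epithelial mean as a covariate, and Spry1 (-0.039) and Spry4 (-0.12) with the smooth muscle mean; the cause was not tested. DESeq2 size factors, upper quartile scaling, no filter and limma-voom gave 0 calls among the 10 and left each of them above 0. Each fit that left out 1 library also kept their sign. Other pseudocounts left each permutation result on its side of 0.05. Without Erbb3d/d replicates 3 and 4 together, chosen after the data were seen, 0 of the 10 were called. Etv4 had the fewest reads of the 10, 7 to 60 per library.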
